A study of Mus musculus with 319 samples.

Results

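Among 319 arrays of mouse muscle, 56 (17.6%) carried a high ratio of Cd79b, the beta chain of the B cell antigen receptor complex, and are called lymphoid-rich here. The other 263 are called lymphoid-poor. The groups were chosen by the measured Cd79b ratio itself, at a log2 ratio of -0.50 of animal over pool, so Cd79b describes the groups and is not a result of comparing them. All animals, in both groups, were F2 mice of an intercross between C57BL/6J and C3H/HeJ parents that both lacked ApoE. Both sexes were included, and every animal was fed a high-fat Western diet starting at week 8 and ending at week 24. RNA of each animal, in Cy3, was hybridised against a pool of equal portions of all samples in Cy5. The labels name neither the muscle that was sampled nor a treatment, a genotype per animal, a dissection or a hybridisation batch, so the groups differ by no labelled factor. Each array is 1 animal, apart from a pair that shares animal number 227.

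Values are ratios to the pool and do not show how abundant a transcript was. Eif2s3y, a Y-linked gene, set the direction of the ratio: 155 arrays lay above an empty interval between -3.71 and -0.79, at a median log2 ratio of 1.08, against 1.04 calculated for carriers of a gene that the other animals lack. It lay above that interval on 26 of 56 lymphoid-rich arrays (46.4%) and on 129 of 263 lymphoid-poor arrays (49.0%). Across probes, lymphoid-rich and lymphoid-poor arrays ran against each other, with a median pairwise r of -0.230. The median r was 0.316 between lymphoid-rich arrays and 0.442 between lymphoid-poor arrays. Of 5078 array pairs with r under -0.3, 5077 joined an array of each group, and the lowest r was -0.638. As the labels give the same dyes to every array, and animals on either side of a common pool can oppose each other, the direction was kept.

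Lymph nodes and the spleen store B and T lymphocytes in separate zones that are built by stromal cells. Those stromal cells release chemokines: Cxcl13 draws B cells into follicles, and Ccl19 and Ccl21 draw T cells and dendritic cells. Lymphocytes enter nodes through high endothelial venules, whereas the spleen filters blood through a marginal zone and a red pulp lined by specialised macrophages. Small nodes lie in the fat between muscles, and resting muscle holds few lymphocytes.

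Cd79b had a lowest, median and highest log2 ratio of -0.15, 1.25 and 2.73 on the lymphoid-rich arrays, against -3.14, -2.29 and -0.85 on the lymphoid-poor arrays. The 3 lymphoid-rich arrays nearest the threshold had Cd79b ratios of -0.15, 0.15 and 0.25, and the 3 nearest lymphoid-poor arrays had -0.85, -0.92 and -1.05. No array lay between -0.85 and -0.15. Cd2, an adhesion receptor of lymphocytes, was at 0.00, 0.50 and 0.38 on those 3 lymphoid-rich arrays. On those 3 lymphoid-poor arrays it was at -1.04, -1.39 and -1.36. Ranking the arrays by the mean of Ccr6, Ptprcap and Cd2 in place of Cd79b put the same 56 arrays on top.

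**Figure D1:**
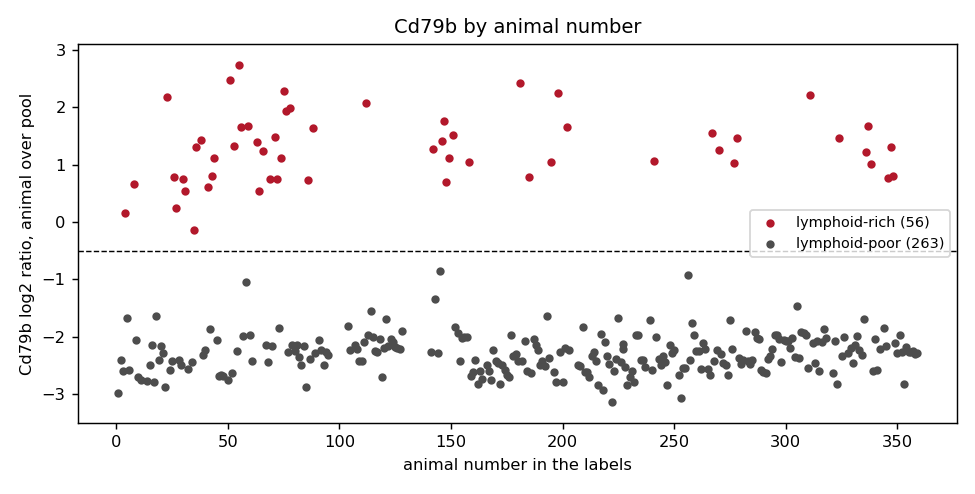
Cd79b log2 ratio of animal over pool (vertical axis) against the animal number in the labels (horizontal axis), 1 point per array, with 56 lymphoid-rich arrays in red and 263 lymphoid-poor arrays in grey. The dashed line is the threshold at -0.50; the gap around it is empty, and red points are densest among the low animal numbers.

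The share of lymphoid-rich arrays changed along the animal numbers, which the rule did not use. In 4 bands of about equal size, 30 of 80 arrays (37.5%) were lymphoid-rich at numbers 1 to 88, 10 of 80 (12.5%) at 89 to 192, 6 of 80 (7.5%) at 193 to 276 and 10 of 79 (12.7%) at 277 to 359. The mean animal number was 137 (SD 109, n = 56) for lymphoid-rich arrays and 196 (SD 101, n = 263) for lymphoid-poor arrays, a difference of -59.0 (two-sided permutation test with 100000 resamples, p = 8e-05). The labels do not say what the numbers stand for. Within the 4 bands, list medians of the difference described below were 1.39 to 1.95 for B cell, 0.59 to 0.64 for T cell, 0.40 to 0.50 for lymphoid stroma, 0.79 to 1.12 for splenic macrophage and 0.44 to 0.57 for dividing-cell genes.

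Differences between the groups, lymphoid-rich minus lymphoid-poor on the log2 scale, were estimated with limma for all probes other than that of Cd79b. A probe or gene is called where its Benjamini-Hochberg adjusted p was under 0.05. Of 10754 genes, 2663 (24.8%) were called higher and 5597 (52%) lower on lymphoid-rich arrays. Over probes, the calls were 5156 higher (22.2%) and 12319 lower (53.1%) of 23189. Higher calls made up 29.5% of called probes as deposited and 43.7% once each array's median was subtracted, with 7017 probes higher and 9027 lower. The median difference over all probes was -0.08 as deposited and -0.02 after that subtraction. Since 76.8% of genes were called in one direction or the other, the size of a difference and the overlap of the groups are given with them. A difference above 1 was reached by 365 genes (3.39%), and none had a difference below -1. The groups did not overlap at all for 57 genes (0.53%), each higher on the lymphoid-rich arrays, and no gene lay wholly lower there. Because a B cell transcript set the groups, a call of a lymphocyte gene describes its variation with that transcript over the same arrays and is no independent test; such counts are given as description.

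Most B cell genes were higher on lymphoid-rich arrays, some by a wide margin. Of 23 measured genes of the B cell list, 21 were called higher and none lower, with a median difference of 1.61 (3.05-fold), against -0.07 over all genes. Cd22, an inhibitory receptor of B cells, had log2 ratios of 0.06, 1.38 and 3.21 (lowest, median, highest) on lymphoid-rich arrays and of -5.10, -4.02 and -0.84 on lymphoid-poor arrays. The groups were fully apart, by 5.34 ± 0.11 (SE, n = 56 and 263). Ccr6, a chemokine receptor of B cells and of some T and dendritic cells, ran at -0.10, 1.35 and 2.96 on lymphoid-rich arrays and at -4.22, -3.12 and -1.05 on lymphoid-poor arrays, again with no overlap (difference 4.46 ± 0.08). Pou2af1, the coactivator that works with octamer-binding factors in B cells, differed by 4.34 ± 0.10, Fcrla, an Fc receptor-like protein inside B cells, by 4.13 ± 0.12, and Cxcr5, the follicle-homing receptor, by 3.75 ± 0.09. Other members moved far less. Ighm, the IgM heavy chain, differed by 0.39 over its 5 probes, Cd79a, the partner chain of Cd79b, by 0.66 and Pax5, the B cell lineage factor, by 0.09. Btk, a kinase downstream of the receptor, stood at -0.02 ± 0.02 and was not called (adjusted p = 0.44, limma), and it turned to 0.04 with array medians subtracted. Tnfrsf13b, the receptor TACI, stood at -0.04 and was not called. A probe whose signal is near background in both channels gives a ratio near 0 in any sample; signal intensities were not used here, so how far this bears on the small differences was not tested.

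The octamer ATGCAAAT is the classical promoter element read by Pou2f2 and its coactivator Pou2af1. The RefSeq promoter windows of build GRCm38.p6, 300 bases around each annotated start, held it on either strand in 3 of 29 windows of the B cell list (10.3%), against 570 of all 32851 windows (1.74%). The window of Ccr6 is shown because it belongs to a gene whose groups did not overlap and holds a match; it lies on the plus strand at chr17:8235793-8236092. Capitals mark the match, which reads as the reverse complement of the octamer.
Ccr6: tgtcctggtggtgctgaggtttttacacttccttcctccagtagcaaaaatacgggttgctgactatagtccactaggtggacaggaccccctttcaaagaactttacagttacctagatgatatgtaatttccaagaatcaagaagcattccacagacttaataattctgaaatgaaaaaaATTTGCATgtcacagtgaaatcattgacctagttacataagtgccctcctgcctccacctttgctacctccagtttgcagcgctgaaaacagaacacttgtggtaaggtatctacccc
A match is a stretch of letters and not evidence that a factor binds there.

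Plasma cell genes went the same way with smaller differences. Of 7 measured, 5 were called higher and none lower (median 0.52). The shares of all genes called were 24.8% higher and 52% lower. Eaf2, a gene linked to germinal centre and plasma cell survival, differed by 1.92, Derl3, an endoplasmic reticulum degradation factor of secretory cells, by 1.41, and Tnfrsf17, the survival receptor BCMA, by 1.03. Xbp1 and Prdm1, the transcription factors of the plasma cell programme, stood at -0.05 and 0.02 and were not called. The germinal centre list showed no common direction: of 6 genes, 2 were called higher and 2 lower, with a median of -0.01 that changed sign to 0.05 with array medians subtracted. Bcl6, the master regulator of germinal centre B cells, was lower by 0.24 and Gcsam, a germinal centre signalling adaptor, higher by 0.16. Bcl6 had ratios of -0.60, -0.09 and 0.24 on lymphoid-rich arrays and -0.38, 0.14 and 0.79 on lymphoid-poor arrays.

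T cell genes ranged from no overlap between the groups to hardly any separation. Of 25 measured, 19 were called higher and 3 lower (median 0.62, 1.54-fold), against 24.8% and 52% of all genes. Cd2, which is not confined to T cells in mice, had ratios of 0.00, 1.35 and 2.63 on lymphoid-rich arrays. On lymphoid-poor arrays it ran at -3.89, -2.61 and -1.04, and the groups did not overlap. Cd3g, a chain of the T cell receptor complex, ran at -0.31, 1.17 and 2.46 on lymphoid-rich arrays and at -3.85, -2.69 and -0.03 on lymphoid-poor arrays, with the 2 groups touching at their ends. Cd3d differed by 2.65, Il7r, the interleukin 7 receptor of naive and memory T cells, by 2.59, and Bcl11b, a T lineage factor, by 2.48. Cd8a and Cd8b1, the chains of the CD8 coreceptor, differed by 0.88 and 0.63, and Cd4 by 0.16. Ccr7, the homing receptor that takes T cells into lymph nodes, was lower by 0.31 (-0.63, -0.18 and 0.33 on lymphoid-rich arrays, -0.35, 0.13 and 0.76 on lymphoid-poor arrays). Foxp3, the regulatory T cell factor, stood at 0.03 and was not called.

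Cytotoxic and shared lymphocyte genes were also apart. Of 13 measured natural killer and cytotoxic genes, 11 were called higher and none lower (median 1.08), against 24.8% and 52% of all genes. Ccl5, a chemokine of cytotoxic lymphocytes, had ratios of 0.44, 1.27 and 2.52 on lymphoid-rich arrays and -3.79, -2.52 and -0.69 on lymphoid-poor arrays, with no overlap (difference 3.82 ± 0.08). Klrd1, the natural killer receptor CD94, differed by 3.97, Il2rb by 3.26 and Eomes, a factor of cytotoxic cells, by 2.11. The granzyme genes spread widely, with Gzma at 0.99, Gzmb at 0.20 and Gzmk at 0.03, the last not called. Ncr1, the natural killer receptor NKp46, stood at 0.00 and was not called. Among 19 genes shared by lymphocytes, all 19 were called higher (median 1.68, 3.20-fold). Ptprcap, a protein bound to the CD45 phosphatase, ran at 0.07, 1.38 and 2.69 on lymphoid-rich arrays and at -3.74, -3.02 and -0.92 on lymphoid-poor arrays. Its groups did not overlap, at a difference of 4.28 ± 0.07 (19.4-fold). Ltb, lymphotoxin beta, by which lymphocytes keep lymphoid stroma in shape, differed by 3.95 and Ptprc, CD45 itself, by 3.76.

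**Figure D2:**
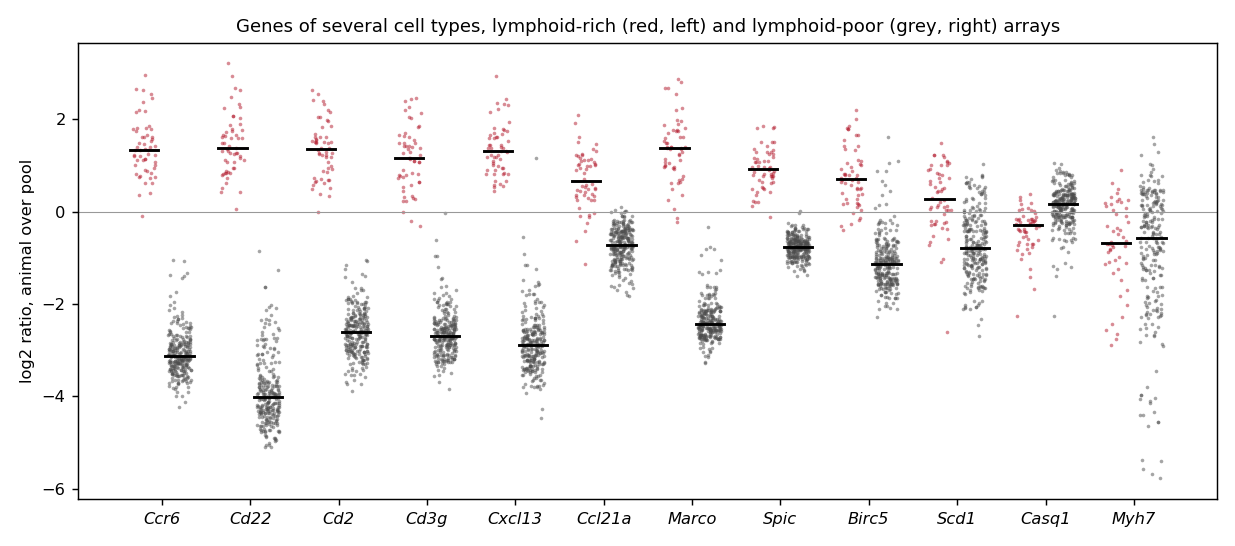
Log2 ratio of animal over pool (vertical axis) for 12 genes, 1 point per array, with lymphoid-rich arrays in red at the left of each gene, lymphoid-poor arrays in grey at the right, and black bars at the group medians. Ccr6, Cd22 and Cd2 show no overlap, Birc5 and Scd1 overlap, and Casq1 is lower in the lymphoid-rich arrays. Myh7 overlaps widely, with its lowest values on lymphoid-poor arrays.

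Genes of lymphoid stroma and vessels separated the groups as well. Of 19 measured, 15 were called higher and 2 lower (median 0.39, 1.31-fold), against 24.8% and 52% of all genes. Cxcl13, the follicle chemokine, had ratios of 0.46, 1.31 and 2.93 on lymphoid-rich arrays and -4.47, -2.89 and 1.16 on lymphoid-poor arrays. The ranges overlapped through 1 lymphoid-poor array above the lowest lymphoid-rich one, and the difference was 4.19 ± 0.09. Ccl21a ran at -1.12, 0.66 and 2.09 on lymphoid-rich arrays and at -1.83, -0.72 and 0.09 on lymphoid-poor arrays, a difference of 1.42, and Ccl19 differed by 1.21. Fut7, the enzyme that builds the selectin ligands of high endothelial venules and leukocytes, differed by 1.82. Chst2, a sulfotransferase that acts on those ligands, was called lower by 0.21, the most negative difference of the list (-0.51, -0.09 and 0.70 on lymphoid-rich arrays, -0.31, 0.10 and 1.01 on lymphoid-poor arrays). Tnfsf11, the cytokine RANKL, differed by 2.15. Madcam1, an addressin of mucosal venules and of the splenic marginal sinus, differed by 0.56 (-0.11, 0.36 and 1.20 on lymphoid-rich arrays, -0.54, -0.18 and 0.23 on lymphoid-poor arrays), with 64 lymphoid-poor arrays above the lowest lymphoid-rich one and 19 lymphoid-rich arrays below the highest lymphoid-poor one. Lymphatic vessel genes moved little: Lyve1 by 0.16, Prox1, the lymphatic identity factor, by -0.12, and Flt4, the lymphatic growth factor receptor, by -0.11 without a call. Glycam1 and Chst4, which mark high endothelial venules most closely, had no named probe and were not analysed here.

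Genes commonly used for splenic macrophages were higher too. Of 12 genes of splenic red pulp and marginal zone, 8 were called higher and 2 lower (median 0.88, 1.85-fold). Marco, a scavenger receptor of marginal zone macrophages and of medullary macrophages in lymph nodes, had ratios of -0.22, 1.37 and 2.88 on lymphoid-rich arrays and of -3.27, -2.43 and -0.33 on lymphoid-poor arrays. The groups did not overlap, at a difference of 3.71 ± 0.07. Cd5l, secreted by tissue macrophages, differed by 1.86, Vcam1, an adhesion molecule of stroma and of red pulp macrophages, by 1.77, Cd209b, a lectin of marginal zone macrophages, by 1.74, and Spic, the transcription factor of red pulp macrophages, by 1.70. Spic ran at -0.11, 0.93 and 1.85 on lymphoid-rich arrays and at -1.40, -0.76 and 0.01 on lymphoid-poor arrays, with 2 lymphoid-poor arrays above the lowest lymphoid-rich one. The 2 members called lower were Tlx1, the homeobox gene needed to form a spleen, by 0.21, and Slc40a1, the iron exporter of red pulp macrophages, by 0.26. Of all genes, 52% were called lower, and the lower quartile of the difference was -0.17. Medians of Tlx1 were -0.03 on lymphoid-rich and 0.12 on lymphoid-poor arrays, and its highest lymphoid-poor ratio, 6.64, was at the limit of the scale. Slc40a1 lost its call with 4 lists of other tissue as covariates (-0.11), and Tlx1 without the arrays above 1 in Krt14, Epcam or Ngp (-0.19). Siglec1, a sialoadhesin of marginal zone and lymph node sinus macrophages, stood at 0.02 and was not called.

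Erythroid and megakaryocyte genes had no common direction. Mouse spleen makes red cells and platelets in its red pulp, and lymph nodes do not. Of 18 erythroid and megakaryocyte genes, 5 were called higher and 6 lower, with a median of -0.09, against -0.07 over all genes, and of 0.04 without the arrays above 1 in Krt14, Epcam or Ngp. Car1, carbonic anhydrase of red cell precursors, had ratios of -2.75, -1.85 and -0.74 on lymphoid-rich arrays and -2.85, -1.43 and 5.07 on lymphoid-poor arrays, so its highest values were on lymphoid-poor arrays. Klf1, the erythroid master factor, was lower by 0.19. Itga2b, the platelet integrin, and Epor, the erythropoietin receptor, were higher by 1.00 and 0.92. The thymus list also had no common direction, with 4 called higher and 6 lower of 10 (median -0.05, and 0.01 with array medians subtracted): Cd1d1, which presents lipids to T cells and is also made by marginal zone B cells, differed by 1.40, whereas Arpp21, a phosphoprotein of immature thymocytes and neurons, was lower by 0.31, Foxn1, the factor of thymic epithelium, by 0.14 and Ptcra, the pre-T cell receptor chain, by 0.06. Over all genes, 24.8% were called higher and 52% lower, and the quartiles of the difference were -0.17 and 0.08. Foxn1 and Ptcra lay between these quartiles. Lymph nodes and spleen both express many genes of the stromal and macrophage lists. The part of either organ in a sample was not tested.

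Most antigen-presenting and myeloid genes were higher on lymphoid-rich arrays. All 7 measured genes of MHC class II were called higher (median 0.86), against 24.8% higher and 52% lower over all genes. H2-Eb1 led at 2.57, with H2-Aa at 2.02. Of 8 dendritic cell genes, 7 were called higher and 1 lower (median 1.26), with Cd83, a maturation marker also made by B cells, at 2.59 and Flt3, the growth factor receptor of dendritic cells, at 1.71. All 18 macrophage genes were called higher (median 1.01), from Ctss, a lysosomal protease of antigen-presenting cells, at 2.64 down to Cd68 at 0.15. The interferon response list had 15 of 16 called higher (median 0.85), led by Irf7, its amplifying factor, at 1.88, while Rsad2, viperin, stood at 0.00 and was not called. Among 13 neutrophil and marrow genes, 7 were called higher and 3 lower (median 0.21, and -0.01 with 4 lists of other tissue as covariates, 1 of which holds these genes). S100a9, a calcium-binding protein of neutrophils, differed by 1.86, and Elane, neutrophil elastase, was lower by 0.14. The lower quartile of the difference over all genes was -0.17. Ngp, a neutrophil granule protein, reached ratios above 1 on 6 of 56 lymphoid-rich arrays and on 17 of 263 lymphoid-poor arrays.

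**Figure D3:**
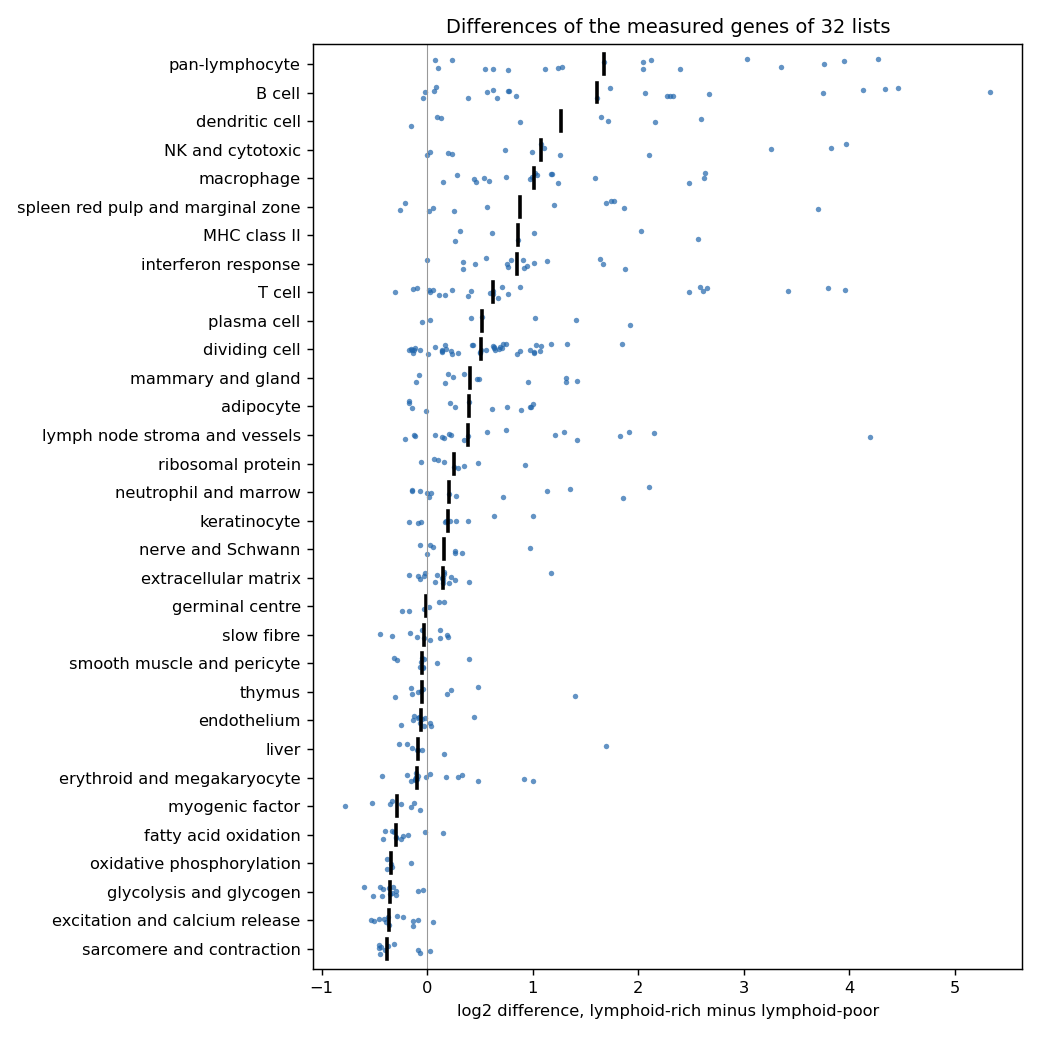
Difference in log2 ratio, lymphoid-rich minus lymphoid-poor (horizontal axis), for each measured gene (blue points) of 32 lists, with the list median as a black bar. Lists of lymphocytes, antigen-presenting cells and dividing cells lie at the top with medians above 0.5, and 6 lists of muscle genes lie at the bottom with medians between -0.29 and -0.38.

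Dividing-cell genes were higher in most cases. Of 43 measured, 35 were called higher and 6 lower (median 0.51, 1.43-fold), against 24.8% and 52% of all genes. For 23, the lymphoid-rich array was higher in more than 0.9 of all pairs of an array from each group. That held for 7.2% of all genes. Birc5, survivin of the chromosomal passenger complex, had ratios of -0.40, 0.72 and 2.20 on lymphoid-rich arrays and -2.28, -1.13 and 1.62 on lymphoid-poor arrays. The medians were far apart while the ranges overlapped, at a difference of 1.85 ± 0.09. Ccnb2, a mitotic cyclin, differed by 1.32, Mcm6, a subunit of the replicative helicase, by 1.17, and Cdk1, the mitotic kinase, by 0.68. Mki67, the antigen Ki-67, differed by only 0.24. Genes lower on lymphoid-rich arrays included Rrm1, a ribonucleotide reductase subunit, by 0.17 and Mybl2, a cell cycle transcription factor, by 0.15. The lower quartile of the difference over all genes was -0.17. Top2a, topoisomerase II alpha, stood at -0.07 ± 0.08 and was not called (adjusted p = 0.43, limma).

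Promoters of mitotic genes often carry the element TTTGAA, known as the cell cycle homology region, and CCAAT boxes. Both were found, on either strand, in 24 of 50 RefSeq windows of the dividing-cell list (48%), against 2284 of all 32851 windows (6.95%). Counted whether or not the other was present, TTTGAA was in 24 of 50, against 17.9% of all windows, and CCAAT in 37 of 50 (74%), against 37.4% of all windows. Windows of 3 called genes are given to show how the letters are placed in genes that differed together: Ccnb2 (chr9:70421505-70421804, minus strand), Cdc20, the activator of the anaphase-promoting complex (chr4:118437294-118437593, minus strand), and Cdk1 (chr10:69352863-69353162, minus strand), all in build GRCm38.p6. Capitals mark TTTGAA and CCAAT, the last written ATTGG where the match is on the opposite strand, and no base is shared by both.
Ccnb2: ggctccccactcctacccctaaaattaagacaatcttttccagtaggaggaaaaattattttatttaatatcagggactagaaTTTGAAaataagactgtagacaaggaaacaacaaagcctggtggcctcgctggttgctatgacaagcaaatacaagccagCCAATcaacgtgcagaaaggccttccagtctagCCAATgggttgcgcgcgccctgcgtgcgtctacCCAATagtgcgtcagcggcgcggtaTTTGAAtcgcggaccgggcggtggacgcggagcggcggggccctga
Cdc20: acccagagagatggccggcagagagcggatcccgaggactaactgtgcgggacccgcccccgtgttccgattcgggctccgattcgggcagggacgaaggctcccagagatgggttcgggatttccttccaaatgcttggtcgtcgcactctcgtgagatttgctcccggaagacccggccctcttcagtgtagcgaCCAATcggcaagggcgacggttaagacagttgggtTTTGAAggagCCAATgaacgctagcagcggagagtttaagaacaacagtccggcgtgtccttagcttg
Cdk1: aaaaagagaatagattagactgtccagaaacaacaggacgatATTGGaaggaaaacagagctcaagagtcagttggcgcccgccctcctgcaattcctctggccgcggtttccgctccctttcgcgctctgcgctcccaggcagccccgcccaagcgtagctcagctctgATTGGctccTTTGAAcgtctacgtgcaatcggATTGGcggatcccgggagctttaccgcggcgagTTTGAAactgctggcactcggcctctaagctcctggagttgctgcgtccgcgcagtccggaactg
Ccnb2 held 3 CCAAT boxes and 2 TTTGAA matches, Cdc20 held 2 and 1, and Cdk1 held 3 and 2. These are matches of letters in a window and say nothing on which factor acts there.

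Most muscle genes were lower, by amounts that varied between genes. In bulk tissue, fewer cells of a type and less RNA per cell cannot be told apart. Of 10 measured genes of sarcomere and contraction, 9 were called lower and none higher, with a median of -0.38, that is 0.768 of the lymphoid-poor level or 23.2% lower. The shares over all genes were 52% lower and 24.8% higher, with a median of -0.07. Ttn, the giant filament titin, differed by -0.45 ± 0.06, Lmod2, an actin filament nucleator, by -0.46, and Myom2, an M-band protein, stood at 0.03 and was not called. A gene that was only diluted by RNA of other cells would be lower by the same log2 amount as the rest of the muscle genes, so each was set beside -0.38. The 95% interval held that value for 31 of 71 genes of 7 muscle lists, lay above it for 34 and below it for 6. Of the 34 above, 20 still had an interval below 0. The 10 sarcomere genes that set the value are among the 71, and 7 of these 10 held it. The value was taken as exact, although the sarcomere median ran from -0.36 to -0.25 within the 4 bands of animal number. The counts depend on the value chosen and were not repeated at others.

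Medians of the excitation and energy lists were between -0.36 and -0.29, while their members spread around the sarcomere value. In the excitation and calcium release list, 12 of 13 were called lower and none higher (median -0.36), against 52% and 24.8% of all genes. Casq1, calsequestrin of fast fibres, was at -0.53 ± 0.07, and Cacng1, a subunit of the muscle calcium channel, was at -0.50, both with intervals below -0.38. Ryr1, the calcium release channel, was at -0.37. Asph, whose locus also makes junctin, stood at 0.06 ± 0.08 and was not called (adjusted p = 0.47, limma). Glycolysis and glycogen genes were lower in 11 of 13 cases and higher in none (median -0.35), from Phkg1, the muscle phosphorylase kinase subunit, at -0.60 ± 0.07 to Ppp1r3a at -0.04. All 5 measured oxidative phosphorylation genes were lower (median -0.35). Fatty acid oxidation genes were lower in 9 of 11 cases (median -0.29), and Cd36, a fatty acid transporter that macrophages, fat cells and endothelium also make, was higher by 0.15, a sign that turned to -0.07 with 4 lists of other tissue as covariates.

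**Figure D4:**
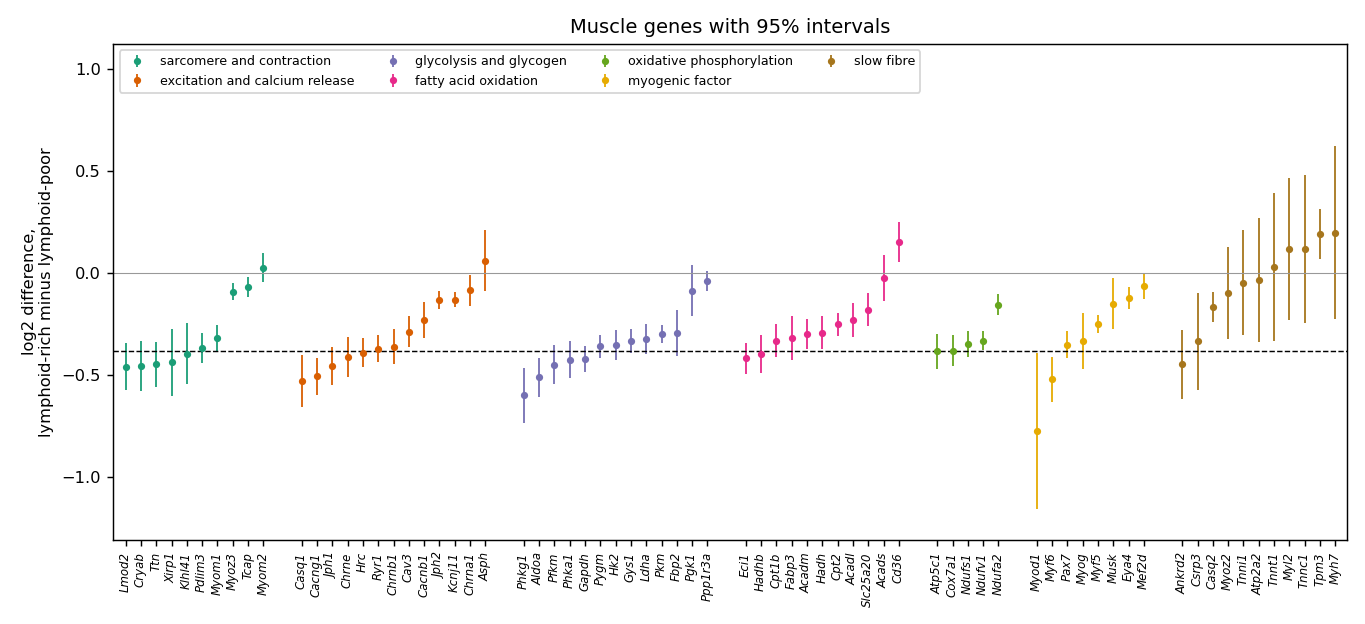
Difference in log2 ratio, lymphoid-rich minus lymphoid-poor (vertical axis), of the measured genes of 7 muscle lists (horizontal axis), with 95% intervals from limma. The dashed line is the sarcomere median of -0.38 and the grey line is 0; most genes of the first 5 lists lie near or above the dashed line, and slow fibre genes lie around 0 with wide intervals.

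Myogenic factors were called lower in 7 of 8 cases (median -0.29), against 52% of all genes. Myod1, which commits cells to the muscle lineage, had ratios of -3.24, -0.36 and 1.41 on lymphoid-rich arrays and -2.77, 0.37 and 2.20 on lymphoid-poor arrays. The groups covered nearly the same range, at a difference of -0.77 ± 0.19, and the call was lost with the 4 lists of other tissue as covariates (-0.44). Myf6, expressed in mature fibres, was at -0.52 ± 0.06, with an interval below -0.38, whereas Pax7, the satellite cell factor, was at -0.35 and Myog, the differentiation factor, at -0.33, both with intervals that held it.

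Slow fibre genes lay around 0. Of 11 measured, 3 were called lower, 1 higher and 7 not at all (median -0.03, and 0.02 with array medians subtracted), and the interval lay above -0.38 for 9. The share called lower was smaller than the 52% over all genes. Myh7, the slow myosin heavy chain, had ratios of -2.89, -0.68 and 0.91 on lymphoid-rich arrays and -5.77, -0.57 and 1.61 on lymphoid-poor arrays. The range of the lymphoid-rich arrays lay within that of the lymphoid-poor arrays, which reached far lower. The difference of means was 0.20 ± 0.21 (adjusted p = 0.40, limma), although the lymphoid-rich median was the lower one. The 1 gene called higher was Tpm3, a slow tropomyosin, at 0.19, and it lost the call with the animal number band as a block (0.12). Within the 4 bands of animal number the list median was -0.63, 0.18, 0.33 and -0.01, so it had no stable sign, while that of the sarcomere list stayed between -0.36 and -0.25.

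The largest negative differences outside these lists included genes of tendon and of muscle. Kera, keratocan of cornea and tendon, had ratios of -3.21, -0.38 and 1.08 on lymphoid-rich arrays and -2.91, 0.75 and 2.52 on lymphoid-poor arrays, a difference of -0.86 ± 0.19 between widely overlapping groups. Tnmd, tenomodulin of tendon, was at -0.69 and Chad, chondroadherin of cartilage and tendon, at -0.67. Both lost the call with the animal number band as a block, at -0.30 and -0.33, and Kera lost it with the covariates, at -0.45. Prkaa2, the catalytic AMPK subunit of muscle, was at -0.76, and Lrrc2 and Yipf7, which are expressed in muscle, were at -0.75 and -0.64. No gene in this direction reached the size of the largest differences of lymphocyte genes.

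Fat and gland genes were higher on lymphoid-rich arrays in most cases. Of 13 adipocyte genes, 9 were called higher and 2 lower, against 24.8% and 52% of all genes. The adipocyte median was 0.40, and 0.02 with the 4 covariate lists, 1 of which holds these genes. Scd1, a desaturase of fat cells, differed by 1.00 ± 0.11 and Plin1, the coat protein of fat droplets, by 0.97, and the call of Scd1 was lost with those covariates (0.08). Lep, leptin, stood at -0.01 and was not called. Of 12 mammary and gland genes, 9 were called higher and 1 lower (median 0.41, from 0.08 to 0.92 within the 4 bands, and -0.03 without the arrays above 1 in Krt14, Epcam or Ngp). Cldn3, a tight junction protein, differed by 1.42 and Elf5, a mammary epithelial factor, by 1.32. Epcam, an epithelial adhesion protein, had ratios of -1.84, -0.27 and 3.25 on lymphoid-rich arrays and -3.29, -1.30 and 2.96 on lymphoid-poor arrays, and exceeded 1 on 20 of 56 lymphoid-rich arrays (35.7%), against 8 of 263 lymphoid-poor arrays (3.04%). In the 4 bands of animal number those shares were 36.7%, 30%, 50% and 30% of the lymphoid-rich arrays, against 2%, 4.29%, 4.05% and 1.45% of the lymphoid-poor arrays. Krt14, a keratin of basal epithelium, exceeded 1 on 14 of 56 lymphoid-rich arrays and on 18 of 263 lymphoid-poor arrays, and 12 of those 14 carried numbers 1 to 88. The milk protein genes were at or below the pool on most arrays, with Csn2, beta-casein, at a median of -0.21 on lymphoid-rich arrays and -0.10 on lymphoid-poor arrays. Csn2 exceeded 1 on 5 of 56 lymphoid-rich arrays and on 5 of 263 lymphoid-poor arrays. The part of skin, fat or gland tissue in the other differences was not tested beyond leaving arrays out and using the 4 covariate lists. Without the 26 lymphoid-rich and 40 lymphoid-poor arrays above 1 in Krt14, Epcam or Ngp, the pan-lymphocyte median was 1.47 and the sarcomere median -0.27.

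Other cells of muscle tissue showed small or mixed differences. Endothelial genes were called higher for 1 and lower for 6 of 12 (median -0.06), and smooth muscle and pericyte genes higher for 1 and lower for 4 of 10 (median -0.05). Both medians turned to above 0 with array medians subtracted, at 0.00 and 0.01. Over all genes, 24.8% were called higher and 52% lower. The median over all genes was -0.07, and -0.02 with array medians subtracted. The share called lower was thus no larger in either list than over all genes. Genes of nerve and Schwann cells were higher for 5 and lower for 1 of 8 (median 0.16). Keratinocyte genes were higher for 5 and lower for 2 of 10. Their median was 0.20, and -0.02 with the 4 covariate lists, 1 of which holds these genes. Extracellular matrix genes were higher for 7 and lower for 2 of 18 (median 0.15, and -0.11 with the covariates), led by Postn, periostin, at 1.18. Ribosomal protein genes were higher for 8 and lower for 1 of 9 (median 0.26), with Rpl3, whose place is taken by a paralog in muscle, at 0.93. Of 8 liver genes, 1 was higher and 3 lower, and the 1 was Fabp1, a fatty acid-binding protein of liver and gut, at 1.69.

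Within the 56 lymphoid-rich arrays, the B cell score varied with some of the other lists. List scores were the mean log2 ratio of the measured genes per array, and 9 lists were set against the B cell score. The T cell score rose with it (r = 0.826, rho = 0.785; permutation p = 1e-05 each, the smallest that 100000 resamples can give; adjusted p = 1.8e-05 and 3e-05), with r = 0.806 without the 2 arrays farthest from the median. The stromal score gave r = 0.696 (rho = 0.703), the plasma cell score 0.595 (rho = 0.503), the splenic macrophage score 0.592 (rho = 0.562) and the dividing-cell score 0.545 (rho = 0.605), all with adjusted p of 1.8e-05 for r by permutation. The highest adjusted p for their rho was 0.000162, and r without the 2 farthest arrays was 0.671, 0.545, 0.537 and 0.517 in the same order. Sarcomere genes ran the other way, with r = -0.401 (adjusted permutation p = 0.00345) and rho = -0.433 (adjusted permutation p = 0.00162), and r = -0.371 without the 2 farthest arrays. After quantile normalization that relation was r = -0.058 (adjusted permutation p = 0.671) and that with the plasma cell score r = 0.208 (adjusted permutation p = 0.186).

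The relations were present in the first band of animal numbers and outside it. For the T cell score r was 0.880 on the 30 lymphoid-rich arrays with numbers 1 to 88 and 0.740 on the 26 others, for the splenic macrophage score 0.498 and 0.674, and for the sarcomere score -0.486 and -0.510. The germinal centre score (r = -0.165, adjusted permutation p = 0.255), the erythroid and megakaryocyte score (r = 0.041, adjusted permutation p = 0.767) and the adipocyte score (r = -0.206, adjusted permutation p = 0.165) gave no adjusted p under 0.05 against the B cell score. On the 263 lymphoid-poor arrays, where no test was run, r was 0.75 for the T cell score and 0.57 for the splenic macrophage score. It was 0.50 for the plasma cell, 0.49 for the stromal and 0.39 for the dividing-cell score there. The germinal centre, erythroid and megakaryocyte, adipocyte and sarcomere scores gave 0.09, 0.21, 0.25 and -0.09. All scores of an array share its RNA and its pool, so they are not independent measurements. The p-values describe variation together among arrays selected on a B cell transcript.

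**Figure D5:**
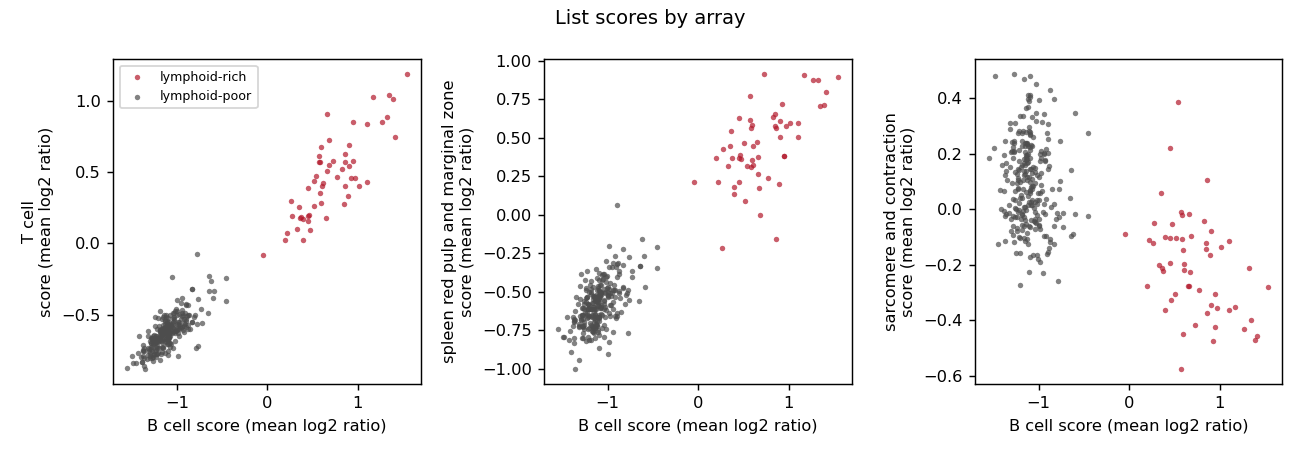
Mean log2 ratio of the T cell, splenic macrophage and sarcomere lists (vertical axes) against that of the B cell list (horizontal axes), 1 point per array, with lymphoid-rich arrays in red and lymphoid-poor arrays in grey. Among the red points the first and second panels rise (r = 0.826 and 0.592) and the third falls (r = -0.401).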

How the data were processed

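The deposited table gives, for each array, a log10 ratio at 23382 probes. The labels state neither its base nor its direction. The base was read from limits at exactly -2 and 2, and the direction from Eif2s3y. Background correction, normalisation and blanking before deposit are not given in the sources used here. Of all values, 0.654% were blank. The SD of log2 ratios per array was 0.213 to 0.995 on lymphoid-rich and 0.244 to 1.08 on lymphoid-poor arrays.

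Ratios were converted to log2. In the platform annotation 13639 probes had 1 symbol, 48 had several and 9695 had none. Of the first, 12647 probes of 10831 genes were found by gene ID in the RefSeq table of GRCm38.p6 and 992 were not. Probes blank on too many arrays (192, with values on under 80%) were left out, and the other 23189, without Cd79b, were fitted with limma 3.58.1 in R 4.3.3 and no covariates. Probes of a gene were averaged. The number of arrays limits the precision, and each array was taken as 1 animal.

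Groups, the 33 gene lists (600 genes, 431 measured) and tests were chosen with earlier results of these data known. The rule for named genes took the largest differences in each direction, the widest separation, and up to 4 extremes of each list; not all of these are printed. Further list members were named for their role after their values were seen. Alternatives covered array centring, quantile normalization, arrays near the threshold, grouping by Ccr6, Ptprcap and Cd2, animal number bands, blank and limit values, a Welch test, arrays of outlying SD, and other tissue. The code was tested on simulated data.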

Additional observations from a re-analysis of the deposited data

How the results depend on the processing

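The numbers of probes called higher and lower stayed within 1.5 times the reported ones under each of 11 alternatives. They ran from 4377 to 7017 higher and from 9027 to 12911 lower. Among the 11, grouping by Ccr6, Ptprcap and Cd2 chose the same 56 arrays. It repeated the main fit, so its counts, medians and calls could not differ. List medians moved by less than the spread between arrays in 351 cases and by more in 12. That spread was the smaller of the 2 group SDs of the list score, and it can exceed the median itself. Some of the 351 medians therefore changed sign. Extracellular matrix went from 0.15 to -0.11 with the covariate lists. Y-linked genes went from -0.45 to 0.82 without the arrays above 1 in Krt14, Epcam or Ngp. Quantile normalization gave medians of 1.40 for B cell, 1.45 for pan-lymphocyte and 0.73 for splenic macrophage genes. With 4 lists of other tissue as covariates, the splenic macrophage median was also 0.73 and the adipocyte median 0.0183. The adipocyte list was 1 of those 4. Taking the probe of largest SD per gene gave 0.84 for plasma cell, 2.04 for pan-lymphocyte and 0.63 for dividing-cell genes. Leaving out arrays above 1 in Krt14, Epcam or Ngp, an alternative chosen after seeing the data, gave 1.47 for pan-lymphocyte, 0.0401 for erythroid and megakaryocyte, -0.0309 for mammary and gland, and 0.14 for ribosomal protein genes. Counted over every named gene and alternative, 6 differences changed sign with a call in the main fit or the alternative. These were Btk to 0.0407 with array medians subtracted, and Cd163 to -0.0325, Cd36 to -0.0689, Sparc to -0.00641 and Cnn1 to -0.000101 with the covariates. The last was Rpsa, to -0.00874 without the arrays above 1 in Krt14, Epcam or Ngp. In another 52 cases a call was lost, in 34 one was gained, and in 1514 the side of the threshold stayed. A change of sign without a call in either fit was counted among the 1514. Of those 1514, 146 came from the grouping by Ccr6, Ptprcap and Cd2, where no change was possible. After quantile normalization the B cell score gave r = 0.208 with the plasma cell score (adjusted permutation p = 0.186) and r = -0.058 with the sarcomere score (adjusted permutation p = 0.671), and 25 other recomputed correlations kept their side of the threshold. The difference of medians in animal number was -128 (82 for lymphoid-rich and 210 for lymphoid-poor arrays; permutation p = 1e-05, the smallest that 100000 resamples can give). No array lay within 0.1 log10 units of the Cd79b threshold, so a width of 0.2, chosen after seeing the data, left out 2 lymphoid-rich and 3 lymphoid-poor arrays. The causes were not tested. No paired analysis was possible because the labels put all arrays in 1 group and no numbers link a lymphoid-rich to a lymphoid-poor array.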

Other observations

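Epithelial genes lay beside Eif2s3y on the arrays. All 20 lymphoid-rich arrays with an Epcam log2 ratio above 1 lay below the empty interval of Eif2s3y, whereas 26 of the other 36 lymphoid-rich arrays (72.2%) lay above it. On lymphoid-poor arrays, 1 of 8 with Epcam above 1 and 128 of the other 255 (50.2%) lay above it. The counts were alike for Cldn3, a tight junction protein (0 of 21 and 26 of 35 lymphoid-rich arrays), Elf5, a transcription factor of mammary epithelium (0 of 16 and 26 of 40), and Krt8, a keratin of simple epithelium (0 of 13 and 26 of 43). Krt14 exceeded 1 above the interval on 2 of 14 lymphoid-rich arrays and on 8 of 18 lymphoid-poor arrays. Scd1, the fat cell gene, exceeded 1 on 11 lymphoid-rich arrays, 4 of them above the interval, and on 1 lymphoid-poor array. These counts were made after the values were seen and were not tested.

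In a pool of equal portions, the mean of the linear ratios over all animals is 1. It was 0.954 for Eif2s3y and 1.04 at the median of all genes, but 0.640 for Cd79b, 0.616 for Ccr6, 0.597 for Ptprcap and 0.632 for Cd2. It was below 1 for each of the 58 genes, Cd79b included, whose groups did not overlap, between 0.580 and 0.905. The reason was not tested.

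Of 263 genes of olfactory receptors, the odorant sensors of the nose, chosen after their values were seen, 169 were called lower and 7 higher on lymphoid-rich arrays, with a median difference of -0.10. Over all genes, 52% were called lower and 24.8% higher, with a median of -0.07.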
